A study of Arabidopsis thaliana with 12 samples.

Results

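Seeds of the Arabidopsis thaliana mutant odr1-2 kept in 300 mM mannitol were compared with seeds of the wild type Col-0 kept in water, 3 libraries against 3 of the 12 in the series. Both groups were after-ripened seeds that had first spent 2 days at 4°C, a cold treatment that breaks dormancy, and RNA was taken after 12 h in the medium, mannitol being the osmotic stress and distilled water its control. Genotype and medium differ together between these 6 libraries. The remaining 6, Col-0 in mannitol and odr1-2 in water, with 3 libraries each and the same pretreatment, give the change that each factor made alone. All 3 comparisons use the same 3 libraries of Col-0 in water, so their values are set side by side without a test of likeness. The mutant is represented by 1 allele, its lesion is not described in the sources used here, and an effect of that allele and of any other difference between the seed stocks cannot be told apart. The series design calls the 3 libraries of each group biological replicates.

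A mature seed holds its embryo in a desiccation-tolerant state in which abscisic acid (ABA) keeps the maturation programme active and gibberellin opposes it. ABA bound by PYR/PYL receptors stops clade A PP2C phosphatases, which frees SnRK2 kinases to activate bZIP factors such as ABI5, and these bind ABRE sequences in the promoters of late embryogenesis abundant (LEA) and stress genes. Osmotic stress raises ABA and keeps imbibed seeds from entering the growth phase, in which the cell wall loosens and DNA replication begins. ODR1, a relative of the rice dormancy protein Sdr4, is known to affect seed dormancy and to restrain bHLH57, an activator of the ABA synthesis genes NCED6 and NCED9. Its own transcript was not analysed here.

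The 6 libraries held between 10299894 and 12501256 counts, and 18413 of the 36795 loci listed passed the low-count filter and were tested. The variance between replicates was 1.99 to 2.49 times that of counting error (chi-square per degree of freedom), so no library behaved as a second deposit of another. The 10 most abundant genes made up 4.92 to 4.96% of each library of Col-0 in water and 8.18 to 8.30% of each of odr1-2 in mannitol. Levels are given as counts per 1000000 library counts after TMM scaling (CPM), in the order of the 3 libraries. Differences are log2 fold changes with n = 3 per group. Each is given ± an SE worked back from the edgeR test, as the absolute change over the square root of its F value. A gene is said to have risen or fallen only where its adjusted p by edgeR's quasi-likelihood test was under 0.05. Of the genes tested 5719 (31.1%) rose and 5677 (30.8%) fell, 61.9% together. At least 2-fold changes passed the test for 1854 genes upward (10.1%) and 1367 downward (7.42%). The even split (50.2% of calls upward) depended on the scaling. It stayed with scaling by DESeq2 size factors, where 5701 genes rose and 5691 fell. In a fit on TPM, which moved the median log2 change of all genes to -0.109, 4442 genes rose and 6739 fell (39.7% upward). Total-count and upper-quartile scaling gave 42.3% and 42.6% upward. Groups that did not overlap were common as well, at 33.0% of genes with odr1-2 in mannitol higher and 32.9% with it lower.

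The labelled material was seeds, and genes of seed tissues were present in both groups. Summed over the whole list, untested members included, endosperm markers stood at 994 to 1015 CPM in Col-0 in water and 1596 to 1634 CPM in odr1-2 in mannitol. Of the 5 tested, 2 rose (MAN7, an endo-mannanase gene, and EXPA2, an expansin gene of the endosperm), 1 fell (ICE1) and 2 were not called (MAN5, MAN6). The untested ZOU had 1 count over the 3 libraries of Col-0 in water and 0 in the other group. MAN7, which shares sequence with AT5G66470, stood at 135, 146 and 146 CPM in Col-0 in water and 413, 418 and 414 CPM in odr1-2 in mannitol. The whole seed coat list summed to 17 to 19.3 and 14.4 to 17.3 CPM in the same order. Of its 3 tested markers GL2 was lower, MUM2 higher and MUM4 not called. TT10 and BAN, which mark the pigmented seed coat, had 1 count or 0 in either group. MUM2 stood at 0.758, 0.902 and 0.234 CPM in Col-0 in water and 1.66, 1.1 and 2.51 CPM in odr1-2 in mannitol, a log2 change of 1.48 ± 0.49, and its call was lost without replicate 3 of Col-0 in water (1.07) or without replicate 3 of odr1-2 in mannitol (1.13). In whole seeds fewer cells of a type and less RNA per cell cannot be told apart, and the part of endosperm and seed coat in the results below was not tested.

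The 4 regulatory sequences shown here come from 4 of the gene lists, which were chosen with earlier results of these data known. These are LEA, storage protein and heat shock genes, which mostly rose, and DNA replication genes, which mostly fell. Each is the run of 250 bases before the annotated gene start, read 5′ to 3′ along the gene from RefSeq assembly TAIR10.1, and capitals mark every match to 4 motifs on either strand. The motifs are the ABRE (ACGTGNC), bound by ABA-responsive bZIP factors, the RY element (CATGCA), bound by embryo B3 factors such as FUS3 and ABI3, the heat shock element (GAANNTTC) and the E2F site (TTCCCGC), which is linked to DNA replication genes. Overlapping matches run together in capitals. EM6 (chr2:16780369-16780618, minus strand) holds 2 overlapping ABRE matches that share their core. SESA5 (chr5:22239188-22239437, minus strand), a 2S albumin gene, holds 4 RY matches, of which 2 overlap. HSP17.4 (chr3:16984868-16985117, minus strand), chosen after its values were seen, holds 2 heat shock element matches, 2 RY matches and 1 ABRE match. MCM6 (chr5:18010668-18010917, minus strand), a subunit gene of the replicative helicase, holds 1 E2F match and 1 heat shock element match. A match is a run of letters and no shown binding site.
EM6: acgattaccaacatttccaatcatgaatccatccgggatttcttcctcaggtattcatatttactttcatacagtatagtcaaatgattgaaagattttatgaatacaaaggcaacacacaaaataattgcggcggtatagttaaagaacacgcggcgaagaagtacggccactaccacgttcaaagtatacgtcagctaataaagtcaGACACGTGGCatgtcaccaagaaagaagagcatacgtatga
SESA5: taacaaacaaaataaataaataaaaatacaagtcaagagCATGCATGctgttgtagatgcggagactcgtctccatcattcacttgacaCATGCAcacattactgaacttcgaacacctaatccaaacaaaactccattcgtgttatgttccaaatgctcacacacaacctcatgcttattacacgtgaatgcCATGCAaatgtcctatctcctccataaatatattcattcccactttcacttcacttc
HSP17.4: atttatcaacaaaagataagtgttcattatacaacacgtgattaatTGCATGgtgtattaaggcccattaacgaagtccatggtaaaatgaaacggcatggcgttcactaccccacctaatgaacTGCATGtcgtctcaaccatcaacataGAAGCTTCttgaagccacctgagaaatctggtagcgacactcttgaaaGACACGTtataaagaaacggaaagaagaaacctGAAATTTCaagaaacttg
MCM6: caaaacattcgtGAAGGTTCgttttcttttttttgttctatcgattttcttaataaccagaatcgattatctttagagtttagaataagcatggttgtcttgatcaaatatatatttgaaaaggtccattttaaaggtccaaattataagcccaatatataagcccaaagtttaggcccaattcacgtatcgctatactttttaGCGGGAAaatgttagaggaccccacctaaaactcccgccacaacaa

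Of the 11 regulators and markers, DOG1, FUS3, RD29B and EM6 rose most from unstressed wild-type seeds to stressed mutant seeds. The gibberellin synthesis gene GA3OX1 was lower, NCED6 was not called, and the others rose by less. DOG1 (AT5G45830), which sets the depth of seed dormancy, stood at 1.14, 1.80 and 0.936 CPM in Col-0 in water and 32.6, 35.9 and 37.4 CPM in odr1-2 in mannitol. Every library of the second group lay above every library of the first, and the log2 fold change was 4.76 ± 0.18 (adjusted p = 3.3e-35), against 2.82 ± 0.21 for mannitol alone and 2.98 ± 0.21 for the mutation alone. FUS3 (AT3G26790), a B3 factor of embryo maturation, stood at 1.33, 1.64 and 1.17 CPM in Col-0 in water and 24.3, 25.7 and 25.7 CPM in odr1-2 in mannitol, a change of 4.18 ± 0.18. For FUS3 the change in the mutant without stress was 4.04 ± 0.18, and with mannitol alone the value was 0.38 ± 0.28 and was not called. RD29B (AT5G52300), a classic ABA response gene, read 67.7, 58.5 and 60.6 CPM in Col-0 in water and 386, 411 and 409.5 CPM in odr1-2 in mannitol, and EM6 read 244, 269 and 256 CPM in Col-0 in water and 1333, 1289 and 1283 CPM in odr1-2 in mannitol. Neither gene's groups overlapped, and the rises were 2.69 ± 0.05 for RD29B and 2.35 ± 0.06 for EM6.

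Of the 2 ABA synthesis genes tied to ODR1, NCED9 rose and NCED6 was not called. NCED9 stood at 7.67, 9.35 and 7.09 CPM in Col-0 in water and 37.1, 35.6 and 36.5 CPM in odr1-2 in mannitol, with 1.61 for mannitol alone, 1.29 for the mutation alone and 2.18 ± 0.12 for both. NCED6 stood at 4.45, 7.38 and 6.08 CPM in Col-0 in water and 5.61, 8.89 and 7.09 CPM in odr1-2 in mannitol, so that the groups overlapped. Its combined value was 0.26 ± 0.19 (adjusted p = 0.235), with a fall of 0.84 ± 0.21 in mannitol alone and a rise of 1.03 ± 0.18 in the mutant alone. bHLH57 rose by 0.77 ± 0.18 from 5.97, 8.20 and 6.0 CPM to 12.0, 10.9 and 11.7 CPM, while neither factor alone gave a call for it (0.29 and 0.29). The departure of its combined change from the sum of the single changes was not called either (0.19 ± 0.25). ABI5 rose by 0.58 ± 0.06 and CYP707A2, which encodes an ABA hydroxylase that breaks ABA down, by 1.17 ± 0.07. CYP707A2 read 62.9, 53.2 and 58.4 CPM in Col-0 in water and 132, 136 and 125 CPM in odr1-2 in mannitol. GA3OX1, whose enzyme makes gibberellin active, fell by 0.63 ± 0.10 from 36.2, 37.1 and 35.3 CPM to 24.0, 24.0 and 22.1 CPM. That fall lay between a fall of 2.1 ± 0.11 with mannitol alone and a rise of 0.74 ± 0.09 in the mutant alone. EXPA2 rose by 0.68 ± 0.04, from 620.4, 621 and 619 CPM to 983, 1018 and 983 CPM.

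**Figure D1:**
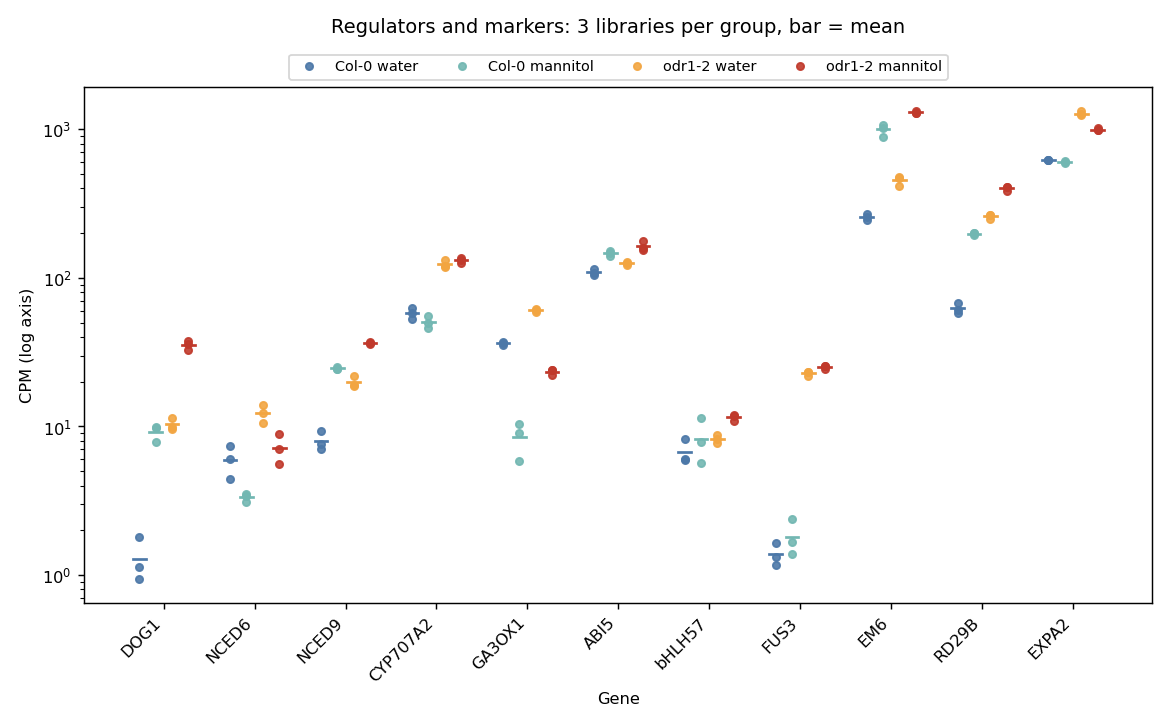
CPM (log axis) of 11 regulators and markers in the 4 groups, 1 point per library and a bar at the group mean. DOG1 and NCED9 are highest in odr1-2 in mannitol, FUS3 is high in both odr1-2 groups, and GA3OX1 is lowest in Col-0 in mannitol.

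Along the ABA pathway most synthesis and phosphatase genes rose and 6 of 11 receptor genes fell. Of 9 tested ABA synthesis genes 7 rose and 1 fell, against 31.1% and 30.8% of all genes. ABA1, the zeaxanthin epoxidase gene, read 50.4, 48.6 and 43.7 CPM in Col-0 in water and 193, 203 and 200.4 CPM in odr1-2 in mannitol, a rise of 2.07 ± 0.06. NCED5 rose by 2.18 ± 0.27, AAO3 by 0.65 ± 0.13 and ABA4 fell by 0.57 ± 0.13. Among the receptor genes 2 rose, and the list had a median log2 change of -1.06. PYR1 read 185, 175 and 171 CPM in Col-0 in water and 67.9, 64.6 and 70.5 CPM in odr1-2 in mannitol. PYL4 read 66.1, 68.4 and 72.3 CPM in Col-0 in water and 14.1, 15.4 and 14.9 CPM in odr1-2 in mannitol, and in both genes the groups lay apart. PYL6 fell by 2.53 ± 0.19, whereas PYL13 rose by 2.21 ± 0.19, and PYL7, PYL8 and PYL11 were not called. Of 9 clade A phosphatase genes 8 rose and 0 fell, among them AHG1 (134, 143 and 137 CPM against 593, 627 and 647 CPM) and HAI3 (2.31 ± 0.06), while ABI1 was not called (-0.20 ± 0.10). Among the SnRK2 kinase genes SNRK2.3 rose by 0.88 ± 0.06 and OST1 by 0.51 ± 0.16, and SNRK2.2 was not called. Of 9 ABA transcription factor genes 7 rose and 0 fell, led by BZIP67 (2.28 ± 0.50), EEL (2.2 ± 0.10) and ABF4 (2.05 ± 0.09), and ABI4 and ABF3 were not called. Of the 2 tested catabolism genes CYP707A3 fell by 1.62 ± 0.31. ABF4 shares sequence with the gene AT3G03815 on the other strand, and whether counting used strand is not given in the sources used here.

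Dormancy regulators rose in 11 of 16 cases and fell in 2. Besides DOG1 the largest rises were those of MFT (39.3, 37.5 and 36.9 CPM against 197, 182 and 186 CPM) and of the DOG1 relative DOGL4 (1.56 ± 0.07). SOM, a zinc finger gene that acts against germination in the dark, rose by 0.84 ± 0.04 and RDO5 by 0.68 ± 0.05, whereas DOGL3 fell by 0.74 ± 0.14 and TFIIS by 0.55 ± 0.06. Of 8 embryo programme factors 3 rose and 1 fell, a share of rises near the 31.1% of all genes. HSFA9, a heat shock factor of maturing seeds, read 1.89, 2.05 and 1.87 CPM in Col-0 in water and 15.1, 14.6 and 14.8 CPM in odr1-2 in mannitol, a rise of 2.93 ± 0.20. ABI3 rose by 0.20 ± 0.05, a call that was lost under total-count scaling (0.11) and on TPM (0.08). VAL2, a repressor of the embryo programme, fell by 0.27 ± 0.07, and LEC1 and LEC2 were too low to test. MFT, HSFA9 and PIF1 each share sequence with a gene on the other strand.

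Of 11 gibberellin synthesis genes 4 rose and 5 fell, against 31.1% and 30.8% of all genes, and on TPM 2 rose and 5 fell. GA20OX2, which makes the precursor of active gibberellins, read 15.4, 15.3 and 15 CPM in Col-0 in water and 1.84, 2.02 and 1.80 CPM in odr1-2 in mannitol, and none of its libraries overlapped. It fell by 3.01 ± 0.19 here, whereas mannitol alone raised it by 0.40 ± 0.14 and the mutation alone lowered it by 1.90 ± 0.17. GA20OX1 fell by 2.27 ± 0.29, GA20OX3 by 0.75 ± 0.06 and GA3OX2 by 0.58 ± 0.09, while the earlier gene GA3 (ent-kaurene oxidase) rose by 0.57 ± 0.05 and GA3OX4, at 2.21, 1.37 and 2.78 CPM in odr1-2 in mannitol, by 3.18 ± 0.55. GA2OX2, of gibberellin deactivation, rose by 1.31 ± 0.15. Among 8 signalling genes the receptor genes GID1C (1.23 ± 0.13) and GID1A (0.87 ± 0.07) and the DELLA repressor gene RGL2 (0.48 ± 0.04) were among 5 that rose, and 2 fell.

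Most seed maturation genes rose. Of all genes tested 31.1% rose, 10.1% at least 2-fold, and 30.8% fell. Of 24 tested LEA genes 23 rose and 0 fell, 21 of them at least 2-fold, and the median log2 change was 1.92, against a median of all tested genes near 0. Summed over the list the level was 5957 to 5998 CPM in the libraries of Col-0 in water and 20987 to 21230 CPM in those of odr1-2 in mannitol. ECP31 read 75.9, 82.9 and 81.7 CPM in Col-0 in water and 1023, 1021 and 1002 CPM in odr1-2 in mannitol, a rise of 3.66 ± 0.05, and AT4G36600 rose by 3.37 ± 0.07. The single LEA gene without a call was AT5G53260 (0.38 ± 0.24). Of 9 dehydrin genes 7 rose and 1 fell: RAB18, an ABA-induced dehydrin, read 373, 401 and 373 CPM in Col-0 in water and 3273, 3429 and 3202 CPM in odr1-2 in mannitol, whereas HIRD11 fell by 1.20 ± 0.14. All 13 tested storage protein genes rose, with a median of 2.00. SESA5 read 205, 212 and 219 CPM in Col-0 in water and 2185, 2069 and 2079 CPM in odr1-2 in mannitol, and PAP85, a vicilin-like gene, rose by 2.84 ± 0.04. The 12S globulin gene CRA1 stood at 5064, 5022 and 4965 CPM in Col-0 in water and 20434, 20068 and 19855 CPM in odr1-2 in mannitol.

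All 8 tested oil body genes rose as well, each at least 2-fold, with a median of 2.86. OLEO2, an oleosin gene, read 206, 207 and 214 CPM in Col-0 in water and 1788, 1870.3 and 1825 CPM in odr1-2 in mannitol, and the caleosin gene CLO1 68.5, 70.3 and 70.2 CPM in Col-0 in water and 665, 661 and 647 CPM in odr1-2 in mannitol. Among 4 galactinol and raffinose family genes 3 rose and 1 fell. GOLS2, galactinol synthase, read 2.65, 2.79 and 2.42 CPM in Col-0 in water and 57.8, 52.5 and 57.7 CPM in odr1-2 in mannitol, a rise of 4.42 ± 0.14, and STS rose by 3.57 ± 0.10. DIN10, annotated as a raffinose synthase family gene, fell from 343, 334 and 337 CPM to 36.5, 43.7 and 37.0 CPM. Rises were found for TIP3;2 (3.73 ± 0.05) and TIP3;1 (3.31 ± 0.04), aquaporin genes of the seed tonoplast, whereas PIP2;7 of the plasma membrane fell by 1.25 ± 0.05. In all, 4 of 8 aquaporin genes rose and 3 fell, where 31.1% of all genes rose and 30.8% fell. TIP3;1 and TIP3;2 each overlap a gene on the other strand.

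Heat shock genes rose in 12 of 14 cases and fell in 1, HSP17.6II (-0.86 ± 0.37), whose libraries overlapped between the groups. That fall was not called by DESeq2 (-0.86), nor without replicate 2 (-0.90) or replicate 3 (-0.65) of Col-0 in water or replicate 1 (-0.59) or replicate 3 (-0.83) of odr1-2 in mannitol. HSP101, a disaggregase that confers heat tolerance, read 9.0, 11.5 and 11.2 CPM in Col-0 in water and 156, 149 and 149 CPM in odr1-2 in mannitol. No library of one group reached the other, and the rise was 3.83 ± 0.09. HSP70 rose by 2.37 ± 0.05, HSP90.1 by 2.39 ± 0.08 and the factor gene HSFA2 by 2.31 ± 0.09. Of 12 osmotic and dehydration genes 5 rose, 1 fell and 6 were not called, where 31.1% of all genes rose and 30.8% fell. RD29A rose by 2.38 ± 0.20, while RD22 fell by 2.95 ± 0.34 from 5.97, 5.90 and 5.22 CPM to 0.460, 1.1 and 0.629 CPM. The proline synthesis gene P5CS1 (0.33 ± 0.16), ADH1 (0.13 ± 0.06) and RD26 (-0.12 ± 0.39) had no call.

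The listed cell wall loosening, DNA replication and ribosomal protein genes mostly fell. Of all genes tested 30.8% fell, 7.42% at least 2-fold, and 31.1% rose. Cell wall loosening genes numbered 22, of which 17 fell, 12 of them at least 2-fold, and 4 rose (median -1.50, but -0.94 on TPM and -0.75 under the stricter filter, which tested 18 of them). XTH15, which encodes an enzyme that cuts and rejoins xyloglucan, read 119.5, 129 and 126 CPM in Col-0 in water and 2.48, 2.11 and 2.42 CPM in odr1-2 in mannitol. EXO, an EXORDIUM gene linked to brassinosteroid-driven growth, read 79.6, 81.5 and 85.5 CPM in Col-0 in water and 1.38, 2.2 and 0.629 CPM in odr1-2 in mannitol. XTH33 had 374 counts over the 3 libraries of Col-0 in water and 0 in the 3 of odr1-2 in mannitol, which puts it at least 115-fold lower when the second group is set to 3 counts in all. The 4 that rose were EXPA4 (1.59 ± 0.12), EXL2 (0.88 ± 0.04), EXPA2 and XTH5 (0.51 ± 0.09). XTH25, a xyloglucan-modifying enzyme gene that is not in this list, rose by 2.42 ± 0.08. XTH15 overlaps AT4G14120 on the other strand, which fell with it, and reads of the pair cannot be told apart. The DNA replication and cell cycle list had 13 falls and 2 rises among 19 genes. All 6 MCM genes, which encode the replicative helicase, fell by between 1.02 (MCM5) and 1.55 (MCM6) on the log2 scale. MCM6 read 15.3, 12.5 and 13.1 CPM in Col-0 in water and 4.69, 5.50 and 3.77 CPM in odr1-2 in mannitol, and PCNA1, the sliding clamp gene, 10.9, 12.5 and 14.6 CPM in Col-0 in water and 2.57, 3.85 and 3.23 CPM in odr1-2 in mannitol. The rises were those of ORC1A (0.70 ± 0.15), which ATARD2 and an antisense RNA gene overlap on the other strand, and CYCD2;1 (0.18 ± 0.08). The call of CYCD2;1 was lost by DESeq2 (0.17), under total-count (0.08) and upper-quartile scaling (0.09), on TPM (0.06) and without replicate 1 (0.14) or 2 (0.17) of Col-0 in water or replicate 1 (0.16) or 3 (0.18) of odr1-2 in mannitol. The fall of CYCD5;1 (-0.48 ± 0.20) was lost without replicate 1 (-0.38) or 3 (-0.47) of Col-0 in water or replicate 2 (-0.42) or 3 (-0.46) of odr1-2 in mannitol. Of 86 tested genes annotated by product as 40S, 60S or eukaryotic-type ribosomal proteins, 71 fell and 8 rose, with a median of -0.50.

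Other groups moved less evenly, and their counts stand beside 31.1% of all genes that rose and 30.8% that fell. Oil mobilisation genes stayed within 2-fold. Of 18 there were 9 that rose and 5 that fell, but 5 and 7 on TPM and 7 and 7 under total-count and upper-quartile scaling. ICL, isocitrate lyase of the glyoxylate cycle, rose by 0.79 ± 0.03 and AIM1 by 0.77 ± 0.05. Of 14 circadian clock genes 8 rose and 1 fell. The morning genes CCA1 (16.9, 14.2 and 14.4 CPM against 83.4, 75.8 and 79.0 CPM) and PRR9 (2.72 ± 0.10) rose, the evening gene ELF4 fell by 1.41 ± 0.10, and TOC1 had no call (0.00 ± 0.07). Of 7 indolic glucosinolate genes 6 fell and 1 rose, with CYP83B1 at 76.4, 67.6 and 70.2 CPM in Col-0 in water and 5.88, 7.88 and 8.80 CPM in odr1-2 in mannitol and CYP81F2 down by 3.48 ± 0.15. All 6 aliphatic glucosinolate genes had 0 counts in both groups. Among 6 jasmonate genes 5 fell and 1, JAR1, rose (0.47 ± 0.08). OPR3 fell by 1.42 ± 0.22, and the fall of LOX3 (-1.49 ± 0.61) was not called when replicate 1 (-1.37) or replicate 2 (-1.42) of Col-0 in water, or replicate 2 (-1.03) or replicate 3 (-1.02) of odr1-2 in mannitol, was left out. Without replicate 1 of odr1-2 in mannitol it was -3.49. Of 12 nuclear photosynthesis genes 5 rose and 3 fell, not far from the shares of all genes. PSBO1 was up by 2.13 ± 0.16 and RBCS2B down by 2.18 ± 0.22. Of 42 chloroplast-encoded genes 25 rose and 0 fell, and all 8 mitochondrion-encoded genes rose. Without replicate 3 of Col-0 in water, or without replicate 3 of odr1-2 in mannitol, 16 chloroplast-encoded genes rose. Since RNA was captured by its poly(A) tail, a change in capture and in level cannot be told apart for organelle genes, whose summed level was 102 to 110.0 CPM and 160.1 to 174 CPM for the chloroplast in the 2 groups.

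**Figure D2:**
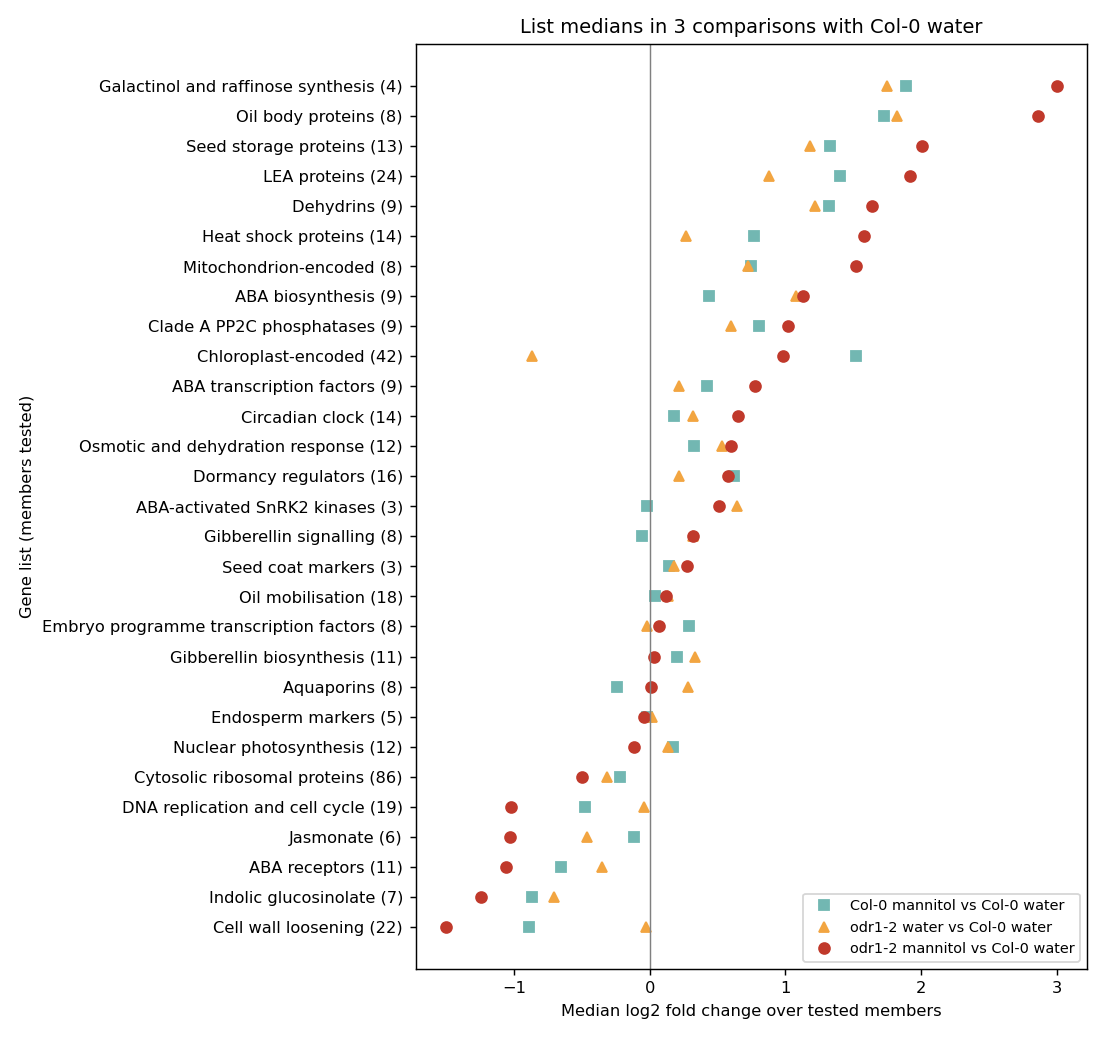
Median log2 fold change over the tested members of each gene list (number tested in brackets) for odr1-2 in mannitol, Col-0 in mannitol and odr1-2 in water, each against the same Col-0 libraries in water. The circles of odr1-2 in mannitol lie at 2.86 for oil body genes and 2.00 for storage protein genes and at -1.50 for cell wall loosening genes.

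The largest changes were ranked over genes that averaged 10 CPM or more in 1 of the groups and whose groups did not overlap. At the top of the rises 3 genes had at most 1 count in the 3 libraries of Col-0 in water together. AT2G11410, of unknown product, had 0 counts in all 3 libraries of Col-0 in water and 24.5, 24.7 and 25.8 CPM in odr1-2 in mannitol. Taking 3 counts for the 3 libraries together as the floor, it was at least 296-fold higher, and in odr1-2 in water it read 24.5, 28.1 and 23.61 CPM. SADHU8-1, a Sadhu element, had 1 count in Col-0 in water against 790 in odr1-2 in mannitol. Scaled to library size that is a ratio of 854 with an exact Poisson 95% interval of 153 to 33763, which covers counting error only. AT1G64795 read 0.852, 1.23 and 0.468 CPM in Col-0 in water and 206, 217 and 216 CPM in odr1-2 in mannitol, but it overlaps ILA on the other strand. IRT3, a metal transporter gene, rose by 5.99 ± 0.32 and read 11.3, 10.7 and 12.2 CPM under mannitol and 18.4, 21.5 and 19.4 CPM in water in odr1-2. AT1G26400, of the berberine enzyme family, read 1.42, 3.85 and 2.03 CPM in Col-0 in water and 97.2, 95.7 and 100.3 CPM in odr1-2 in mannitol. AT5G55620, AT1G67105 and AT5G05965 rose by 5.17, 5.13 and 4.99. For AT2G11410, SADHU8-1, IRT3, AT5G55620 and AT1G67105 mannitol alone gave no call, and the mutation alone did.

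Among these largest rises 2 had uneven libraries. AT5G66230, of the chalcone isomerase family, read 0.284, 1.72 and 1.09 CPM in Col-0 in water and 23.1, 94.4 and 27.7 CPM in odr1-2 in mannitol, with 1 library far above the other two, and AT3G15534 read 0, 0 and 0.0780 CPM in Col-0 in water and 22.9, 12.8 and 4.94 CPM in odr1-2 in mannitol. Their log2 values were 5.49 ± 1.34 and 8.44 ± 2.00, and both calls were lost in limma-voom (adjusted p = 0.0766 and 0.0556). For AT3G15534 the 3 libraries of Col-0 in water held 1 count in all, which gives a ratio of 480 with an interval of 85.7 to 18994. The largest falls, apart from XTH33, EXO, XTH15 and AT4G14120, were those of MRD1, AT5G26220, XTH4, LAC8, sks5 and LGT9. MRD1 read 57.1, 54.6 and 51.4 CPM in Col-0 in water and 1.47, 0.550 and 0.718 CPM in odr1-2 in mannitol and overlaps HEI10 on the other strand. It fell by 5.88 ± 0.17 here and fell by 6.36 ± 0.17 in the mutant alone. LAC8, a laccase gene that overlaps AT5G01030, read 142, 140.4 and 145 CPM in Col-0 in water and 6.90, 5.68 and 7.54 CPM in odr1-2 in mannitol. The SKU5-like gene sks5 fell by 4.35 ± 0.14, with -2.34 for mannitol alone and -2.16 for the mutation alone. AT5G26220, of the ChaC family that degrades glutathione, fell by 5.33 ± 0.38, XTH4 by 4.85 ± 0.29 and the glycosyltransferase family gene LGT9 by 4.16 ± 0.26.

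A set of 1412 genes reached a change of at least 2-fold only when mutation and mannitol were combined: they passed the test at 2-fold or more in odr1-2 in mannitol and stayed under 2-fold in Col-0 in mannitol and in odr1-2 in water. Of these, 728 were higher (3.95% of genes tested and 39.3% of the 1854 genes at least 2-fold higher) and 684 were lower (3.71%, and 50.04% of 1367). Since the rule uses all 3 comparisons, what follows describes the set and no test is given. The higher genes had median log2 changes of 0.63 with mannitol alone, 0.63 in the mutant alone and 1.22 combined. The lower genes had medians of -0.56, -0.51 and -1.25. For 519 of the 728 higher and 407 of the 684 lower genes the sum of both single log2 changes already came to 2-fold. The interaction of genotype and medium, called for 3.75% of all genes, was called for 38 of the 728 higher genes (20 above the sum of the single changes and 18 below) and 37 of the 684 lower ones (36 with a deeper fall than the sum and 1 with a shallower one). Many members lay close to the limit, 194 higher and 156 lower ones within 0.1 of it on the log2 scale. At least 4-fold changes were reached by 24 higher and 29 lower members. The most extreme, picked after their values were seen, were scarce: AT2G37580, a RING/U-box family gene, rose by 2.69 to a mean of 1.70 CPM, and AT2G05675 fell by 4.63 to 0.0305 CPM.

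**Figure D3:**
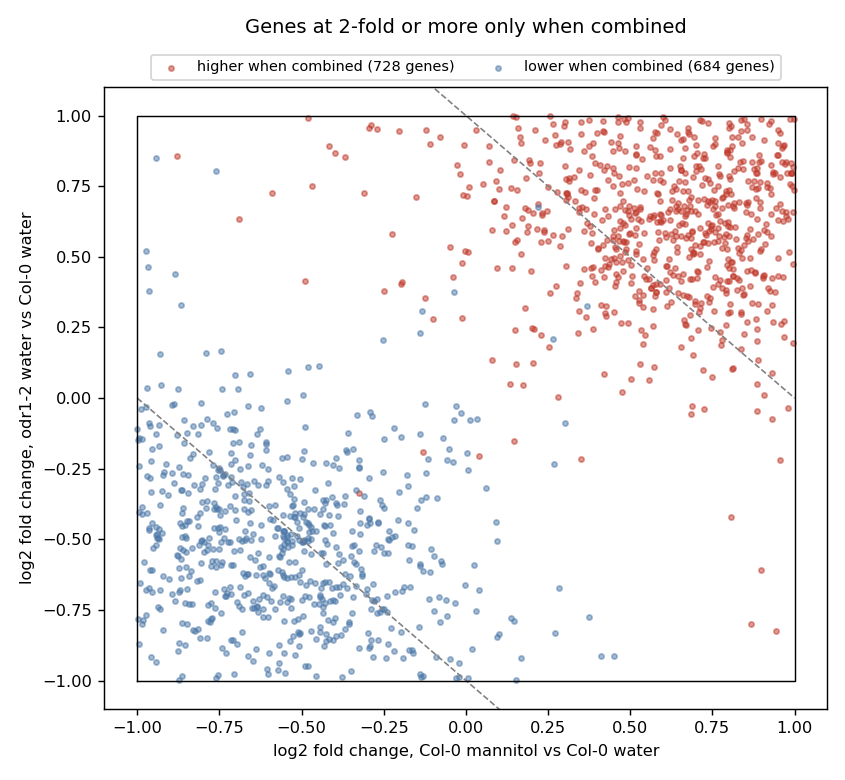
Log2 fold change of Col-0 in mannitol (x axis) and of odr1-2 in water (y axis), each against the same Col-0 libraries in water, for the 728 genes higher and 684 lower by at least 2-fold only in odr1-2 in mannitol. The square is the 2-fold limit of the rule, and points beyond a dashed line (519 higher and 407 lower genes) reach 2-fold by the sum of both single changes.

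Members just inside and just outside the rule differed little. CDF2, just inside, changed 2.0001-fold, and AT1G04030, just outside, 1.9997-fold. AT2G38800, a calmodulin-binding protein gene, was left out because mannitol alone changed it by 1.0005 on the log2 scale. On the lower side AT1G52930, a Brix domain gene of ribosome assembly, was just inside (-1.0004 ± 0.05) and 3BETAHSD/D2, a sterol synthesis gene, just outside (-0.9998 ± 0.17). LSU3 was left out for its change of -1.0030 with mannitol alone.

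The 10 leading genes of the higher set included 2 chaperone genes and 1 clock gene. XTH25, a xyloglucan-modifying enzyme gene, came first with 22.9, 20.7 and 21.3 CPM in Col-0 in water, 45.5, 39.7 and 41.1 CPM in Col-0 in mannitol, 37.3, 38.2 and 40 CPM in odr1-2 in water and 117, 112 and 119 CPM in odr1-2 in mannitol, a combined change of 2.42 ± 0.08. The single-factor libraries all lay between the 2 groups compared. AT1G54050, a small heat shock protein (HSP20) family gene, read 3.50, 3.20 and 3.04 CPM in Col-0 in water, 4.85, 4.36 and 4.25 CPM in Col-0 in mannitol, 3.60, 7.36 and 3.92 CPM in odr1-2 in water and 13.2, 15.6 and 15.6 CPM in odr1-2 in mannitol. Hop3, a co-chaperone gene that links HSP70 to HSP90, read 5.87, 7.54 and 6.08 CPM in Col-0 in water, 7.80, 10.12 and 9.20 CPM in Col-0 in mannitol, 8.38, 9.45 and 9.37 CPM in odr1-2 in water and 26.8, 26.9 and 29.4 CPM in odr1-2 in mannitol. In neither chaperone gene did a library with 1 factor reach the lowest library of stressed odr1-2. Hop3 overlaps PME1 on the other strand. AGL94, a MADS box gene, had means of 15.1, 24.4, 29.2 and 62.9 CPM in the same order of groups. AT4G35750, of the SEC14 lipid transfer family, had 36.5, 67.3, 64.1 and 148 CPM, and RVE8, a MYB-type factor of the clock, 16.9, 33.1, 31.5 and 60.4 CPM. AT4G17840, a CAAX protease family gene, rose by 1.93 ± 0.08 and the F-box-like gene AT4G15563 by 1.92 ± 0.18. AT5G00365 (1.97 ± 0.18) and AT2G05075 (1.84 ± 0.15) have no annotated product. AT4G35750 overlaps LTO1 on the same strand, and AT4G17840 overlaps AT4G17830 and AT4G06745 on the other.

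Among the 10 leading genes of the lower set LP1, a lipid transfer protein gene, came first. It read 17.9, 15.5 and 16.5 CPM in Col-0 in water, 10.9, 11.1 and 9.47 CPM in Col-0 in mannitol, 8.08, 8.37 and 9.88 CPM in odr1-2 in water and 2.67, 2.47 and 2.69 CPM in odr1-2 in mannitol, a combined change of -2.66 ± 0.18. XF1, squalene epoxidase of sterol synthesis, read 18, 21.2 and 18.3 CPM in Col-0 in water, 10.4, 9.77 and 11.6 CPM in Col-0 in mannitol, 14.1, 14.5 and 13.5 CPM in odr1-2 in water and 3.22, 5.31 and 4.49 CPM in odr1-2 in mannitol. Both single treatments left these 2 genes well above the level of stressed odr1-2. GBF6, a bZIP factor gene, had means of 11.2, 5.85, 6.69 and 2.33 CPM in the same order of groups, with 1 library of stressed odr1-2 above the other two (1.66, 1.56 and 3.77 CPM). HB2, a hemoglobin gene, had 122, 68.2, 73.7 and 30.8 CPM, and AT3G25700, an aspartyl protease family gene, 71.5, 36.2, 41.1 and 15.2 CPM. ATMYC1, a basic helix-loop-helix factor gene, fell by 1.97 ± 0.14 and LACS9, a long chain acyl-CoA synthetase gene, by 1.91 ± 0.19. PYK10, the beta-glucosidase of endoplasmic reticulum bodies, fell by 1.95 ± 0.13, and it overlaps AT3G09250 on the other strand. ACA.l (AT1G13210), annotated as an ATPase, fell by 2.36 ± 0.15, and the pectin lyase-like gene AT5G04310 by 1.95 ± 0.18.

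**Figure D4:**
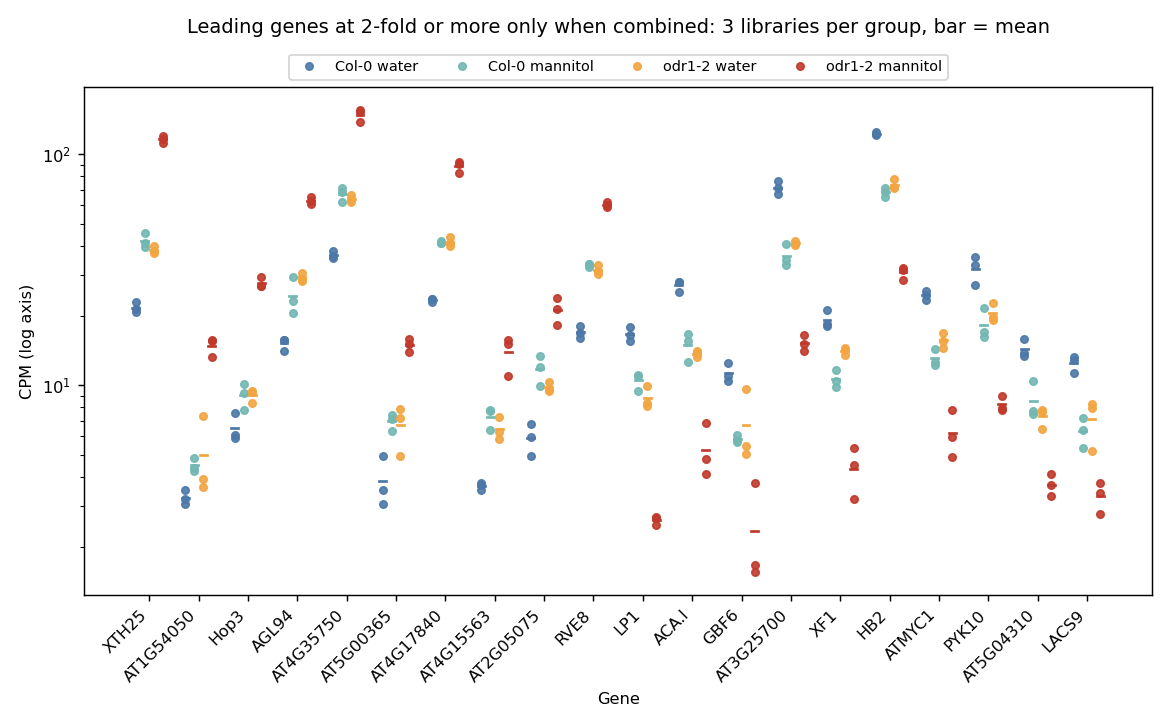
CPM (log axis) of the 10 higher and 10 lower leading genes that reached 2-fold only in odr1-2 in mannitol, 1 point per library and a bar at the group mean. In each gene the means of Col-0 in mannitol and of odr1-2 in water lie between those of Col-0 in water and odr1-2 in mannitol.

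Of 420 tested members of all lists 27 (6.43%) were in the higher set and 11 (2.62%) in the lower set, against 3.95% and 3.71% of all genes tested. Heat shock genes gave 5 of their 14: HSP17.4, HSP17.6A, HSP22, HSP15.7 and HSP70B. HSP17.6A read 23.4, 23.62 and 22.4 CPM in Col-0 in water, 34.2, 41.2 and 39.0 CPM in Col-0 in mannitol, 25.1, 22.0 and 20.8 CPM in odr1-2 in water and 76.5, 85.8 and 79.4 CPM in odr1-2 in mannitol, and HSP70B 21.2, 21.6 and 24.6 CPM in Col-0 in water, 40.1, 39.2 and 39.3 CPM in Col-0 in mannitol, 24.3, 24.8 and 23.7 CPM in odr1-2 in water and 69.6, 65.1 and 74.2 CPM in odr1-2 in mannitol. For both, odr1-2 in water lay close to Col-0 in water, with no call in the mutant alone (-0.04 and 0.11). HSP17.4, whose promoter is shown above, had means of 67.3, 132, 81.2 and 193 CPM in the same order, and it overlaps AT3G46220 and AT3G07365. From the osmotic list came ERD1 (1.60 ± 0.08), DREB2A (1.40 ± 0.06), a factor of the dehydration response, and ERD5 (1.16 ± 0.07), a proline dehydrogenase gene. PIF1, which encodes a light-labile repressor of germination, rose by 1.07 ± 0.05, with 0.71 and 0.45 for the single factors. The gibberellin genes GID1C and GA2OX2 and the phosphatase genes HAI2 (1.31 ± 0.07) and ABI2 (1.02 ± 0.21) belonged here too. So did the receptor genes PYR1 and PYL2 on the lower side, with PCNA2, the expansin gene EXPA9 and the clock gene ELF4. Of the storage protein genes SESA1 was a member (1.39 ± 0.05).

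Departure from the sum of the single log2 changes was tested by the interaction term over all genes. It was called for 199 genes above the sum (1.08%) and 491 below it (2.67%), with a median over all genes of -0.02 on the log2 scale. LEA genes were called below the sum in 17 of 24 cases and above it in 0, with a median interaction of -0.43. ECP31 rose by 3.66 ± 0.05 where its single changes of 2.71 and 1.75 add up to 4.46. Storage protein genes lay below the sum in 9 of 13 cases and above it in 1, SESA4, and oil body genes below it in 7 of 8. Heat shock genes were called above the sum in 5 of 14 cases and below it in 0. These were HSP17.6A (1.11 ± 0.12), HSP17.6C (1.13 ± 0.33), HSP17.8 (3.05 ± 0.64), HSP70B (0.71 ± 0.12) and HSP90.1 (0.84 ± 0.12). HSP17.6A and HSP70B also belonged to the set above, and HSP17.8 itself was not called in the combined comparison (0.61 ± 0.39). For HSP17.8 and for HSP17.6C (combined change 0.90) the interaction was larger than the combined change. In these genes the single changes therefore added up to a negative value. Cell wall loosening genes were called below the sum in 8 of 22 cases, with deeper falls for XTH15 and EXO, and above it in 3. Of 7 indolic glucosinolate genes 4 lay above the sum, among them CYP83B1 (0.89 ± 0.17), which fell by less than its single falls added together. For gibberellin synthesis GA20OX2 (-1.50 ± 0.27) and GA20OX3 (-0.71 ± 0.08) lay below the sum and GA3OX1 (0.73 ± 0.15) and GA3OX2 (0.74 ± 0.13) above it. The median interaction of the LEA, storage protein and oil body lists stayed below 0, and that of the heat shock list above 0, in every setting that gave an interaction, each scaling included.

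**Figure D5:**
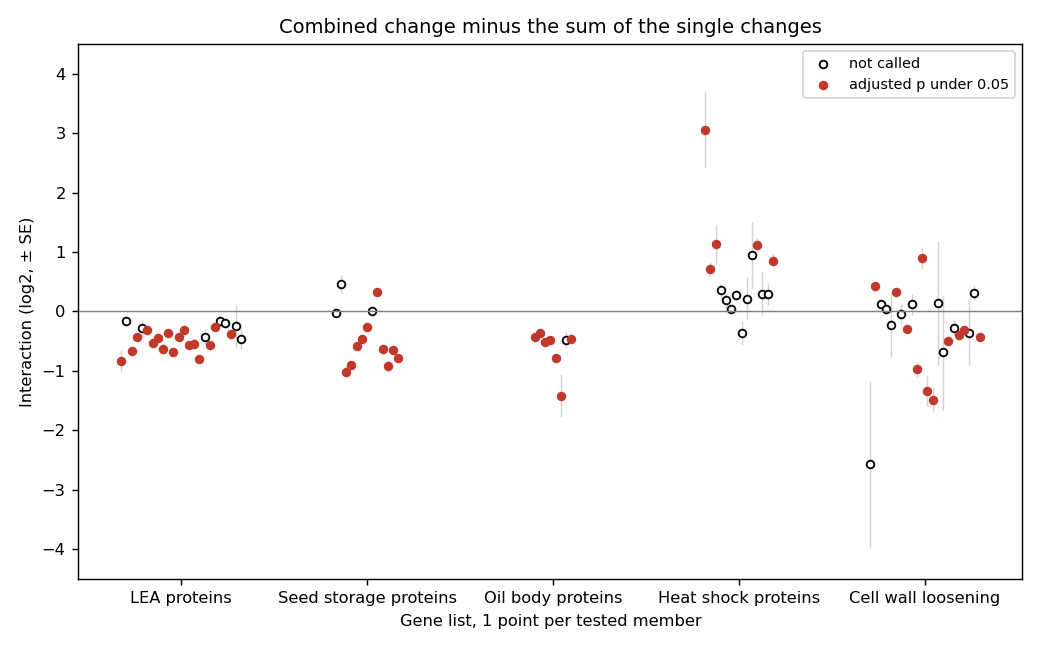
Interaction of genotype and medium (log2), the combined change minus the sum of the single changes, for each tested member of 5 lists. Bars show the standard error up to a fixed maximum. Filled points passed the adjusted p of 0.05: 17 of 24 LEA genes lie below 0 and 5 of 14 heat shock genes above it.

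Promoter letters were counted over the same 250 bases of 18362 tested nuclear genes, as a description. An ABRE match was present in 9.73% of all these promoters, in 19.3% of those of genes at least 2-fold higher and in 7.68% of those at least 2-fold lower. Of the genes that reached 2-fold only when combined, 16.5% of the higher and 7.60% of the lower had one. LEA promoters held an ABRE in 20 of 24 cases (83.3%), as in the EM6 sequence. RY matches, present in 7.19% of all promoters, were found in 11 of 13 storage protein promoters (84.6%), as in SESA5, and in all 8 oil body promoters, but in 6.92% of the higher combined-only genes. The heat shock element was found in 3 of 14 heat shock promoters (21.4%), HSP17.4 among them, against 9.44% of all. It stood in 9.96% of the higher combined-only genes. The motifs were not particular to 1 list each. RY matches were in 3 of 14 heat shock promoters too. ABRE matches were in 5 of 8 oil body (62.5%) and 5 of 13 storage protein promoters (38.5%). An E2F match stood in 7 of 19 DNA replication and cell cycle promoters (36.8%), MCM6 included, against 1.25% of all.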

How the data were processed

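RNA from whole seeds was purified with poly-T beads and sequenced in 12 libraries, 3 for each of 4 groups of genotype and medium, per the labels' protocols. The authors deposited whole-number counts per gene and a second table in TPM. Tools listed in the submitters' processing notes were HTSeq 2.0.5, HISAT2 2.2.1 and fastp 0.23.1, with TAIR10 as the build. Strand and multiple-mapping settings are not given in the sources used here, so paralogs and overlapping genes carry that limit.

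Counts were fitted with edgeR 4.0.16 (quasi-likelihood, robust, TMM) in R 4.3.3, with all 12 libraries in 1 model of 4 group means and genes filtered by filterByExpr (minimum count 10, minimum total 15). Benjamini-Hochberg adjustment ran over all 18413 genes tested, with two-sided tests and a threshold of 0.05. The common biological coefficient of variation was 5.80%. Libraries held 10060020 to 13693166 counts. The scripts were tested on simulated data. Genes named were 11 regulators and markers, the 10 largest rises and falls, the 10 largest members of each combined-only set, up to 3 members per list and the genes next to the 2-fold limit. Members of lists were also named where they belonged to the combined-only set or illustrated a count. The members and lists were chosen with earlier results of these data known. Alternatives covered other scalings and filters, DESeq2 1.42.0, limma 3.58.1 (voom, and trend on log2(TPM + 1)), a replicate block, other thresholds, organelle genes left out, the 6 libraries fitted alone, and each library left out in turn. Gene names and promoters came from RefSeq TAIR10.1, in which 36632 of 36795 loci matched.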

Additional observations from a re-analysis of the deposited data

Results flagged for a closer look

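The 11 regulators and markers and the 10 largest rises and 10 largest falls were screened for an effect of mannitol that differed between the genotypes, which leaves out genes reported above only by list or by the combined-only rule. Of these genes 11 passed, by the interaction term of the edgeR quasi-likelihood fit over all genes (3.75% of genes passed). The largest rises and falls were picked by their combined change, which is part of the interaction value. The count of 11 therefore describes the picked genes and cannot be weighed against the share of all genes. Among regulators the combined log2 change lay below the sum of the single changes for DOG1 (-1.04, adjusted p = 0.00965), NCED9 (-0.73, adjusted p = 0.00128), EM6 (-0.44, adjusted p = 0.0015), RD29B (-1.05, adjusted p = 8.96e-19) and EXPA2 (-0.32, adjusted p = 2.25e-05). GA3OX1 lay above it (0.73, adjusted p = 0.000613). Among the largest changes the rise of AT1G26400 was smaller than the sum (-1.04, adjusted p = 0.000149). Falls deeper than the sum were found for EXO (-1.34, adjusted p = 0.00017), XTH15 (-1.49, adjusted p = 6.88e-08), its overlapping neighbour AT4G14120 (-0.99, adjusted p = 0.0087) and LAC8 (-0.87, adjusted p = 7.3e-06).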

How the results depend on the processing

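Counts of calls stayed within 1.5 times the reported ones in most settings, and of 336 called genes among those named and the members of the hand-written lists 0 changed direction in any setting, while 28 lost their call in at least 1. Of the genes not called, 19 changed sign in at least 1 setting, among them TOC1. The fit on TPM gave 1172 genes at least 2-fold higher, 484 combined-only higher genes, of which 299 were among the 728, and 106 interaction calls above the sum. The stricter filter, which tests fewer genes, gave 1147 and 661 genes at least 2-fold higher and lower and 394 combined-only lower genes. An adjusted p under 0.01 left 120 interaction calls above the sum. With at least 4-fold as the combined limit the combined-only sets had 24 and 29 genes, and with 1.5-fold for all limits 1102 and 1299, of which 140 and 194 were in the sets at 2-fold. Leaving out each library in turn gave 5352 to 5857 rises and 5265 to 5805 falls, 1833 to 1894 and 1344 to 1415 at least 2-fold, 688 to 750 and 646 to 720 combined-only, and 152 to 272 and 395 to 646 interaction calls above and below the sum. Medians of the embryo factor, gibberellin synthesis and aquaporin lists were near 0 and turned negative under total-count, upper-quartile and TPM scaling, and the oil mobilisation median did so on TPM. The low-count filter, which sets the members tested, moved medians too. Without it the aquaporin median was -0.45, and under the stricter filter that of gibberellin synthesis was -0.278. The nuclear photosynthesis median of -0.119 became 0.061 without the filter and 0.313 under the stricter one. Same-numbered libraries did not deviate together (correlations of -0.0264 to 0.0298), and a replicate block gave 5734 rises and 5693 falls. At these depths the genes at under 1 CPM are the least precise. Where a setting moved a value and its construction does not show why, the cause was not tested.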
